A study of Arabidopsis thaliana with 42 samples.

Results

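Transcripts of the plastid and mitochondrial genomes of Arabidopsis thaliana were followed with 122 of the 22810 probe sets of the ATH1 array. They were chosen by position and annotation, not by any measured value. All lie in the array's block of 150 probe sets for organelle genomes, and their locus entry in the authors' ANOVA table is empty or names an organelle locus. The other 28 probe sets of that block carry another locus entry and were left out. By the platform annotation 77 of the 122 report plastid genes, 12 report mitochondrial genes, 1 is assigned to a nuclear gene and 32 are assigned to none. The 77 include genes of both photosystems, the cytochrome b6f complex, the ATP synthase, the NADH dehydrogenase-like (NDH) complex, Rubisco, the plastid RNA polymerase and the plastid ribosome. No plastid rRNA or tRNA is among them, nor are mitochondrial cox1, cob, nad5, atp1 or matR.

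RNA came from whole 7-day-old Columbia seedlings grown in liquid medium with sucrose, with a flask of its own for every sample and time. There were 3 lines: the untransformed wild type, 35S::GR-REV (REVOLUTA fused to the glucocorticoid receptor domain) and 35S::KAN1-GR (KANADI1 fused to that domain). The 35S promoter is constitutive, and the receptor domain holds each factor in the cytoplasm until dexamethasone (DEX) is given. All flasks other than those at 0 min received 50 µM DEX, and the 0 min seedlings were frozen just before it was added. On day 1, wild type (replicates 1 to 3) and GR-REV were collected at 0, 30, 60 and 120 min. On day 2, wild type (replicates 4 to 6) and KAN1-GR were collected at 0, 30 and 60 min. This gives 14 groups of 3 arrays, 42 in all. No untreated flask of a later time is among these samples, so DEX and the time since the 0 min harvest cannot be told apart within a line. The seedlings of day 1 and day 2 were also grown at different times, and the effects of growth and of collection cannot be told apart between the wild-type groups.

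Plastid genes are transcribed by a bacterial-type polymerase, whose core subunits (rpoA, rpoB, rpoC1, rpoC2) are plastid genes and whose sigma factors are nuclear, and by a nuclear-encoded phage-type polymerase. Photosystem genes depend mainly on the bacterial-type enzyme, while rpoB and accD depend on the phage-type one. Many plastid genes are read as long multi-gene transcripts that are then cut, spliced and edited, and the amount of each RNA depends strongly on how fast it is degraded. In plastids a poly(A) tail marks RNA for degradation, whereas it stabilises nuclear mRNA. The labels do not give the primer used for labelling, so which organelle RNA molecules were copied is not known here.

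Values are on a relative log2 scale on which 0 is, for each probe set, the median of the wild type before DEX (6 arrays, both days). Absolute levels are not kept, so a level cannot be compared between genes, and a value of 0 lies between the days where the wild types of day 1 and day 2 differ. Differences are log2 differences between group means of 3 arrays, with the standard error (SE) from a limma fit to all 42 arrays. A call is an adjusted p under 0.05 over the 16129 probe sets tested. Of the members, 86 were tested: 71 plastid, 9 mitochondrial and 6 unassigned. Probe sets that carry no ANOVA p-value in the authors' table were left out, as were 35 controls, and counts below refer to the members that passed that filter. In RNA of whole seedlings, fewer plastids or fewer green cells and less RNA per plastid cannot be told apart.

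Single arrays stood apart from their groups. At 0 min GR-REV replicate 3 was above both other replicates in 60 of 71 plastid members (84.5%), against 5186 of 16024 tested probe sets outside the organelle members (32.4%). It was above both in 1 of 9 mitochondrial members. KAN1-GR replicate 1 at 60 min had the highest 25S rRNA control value of all arrays (2.38 on the relative log2 scale), and the highest 3' minus 5' differences of the actin (0.80) and GAPDH (0.60) controls. The 25S control was also above 1 on 6 other arrays, among them GR-REV replicate 3 at 0 min (2.28). Over the 42 arrays the median of the plastid members had a Pearson r of -0.07 with the 25S control, and with the 3' minus 5' differences of 0.03 for actin, 0.18 for GAPDH and -0.30 for ubiquitin. Within day 1 these 3 were 0.24, 0.26 and -0.40, and within day 2 -0.37, -0.02 and 0.15. Wild-type replicate 2 at 120 min on day 1 had the highest array median of the tested probe sets outside the organelle block (0.19, where the next highest was 0.03). Comparisons whose groups hold these arrays are given below with and without them. The fit shares 1 spread per probe set over all 42 arrays, so these arrays also enter the SE of the other comparisons. The comparisons between the wild types of the days were not refitted without GR-REV replicate 3 at 0 min. The part of RNA quality in the results was not tested further.

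The plastid members moved largely as a block between arrays. The median over the 71 tested plastid members was -0.19, -0.52 and -0.62 on the day 1 wild-type arrays at 0 min and 0.24, 0.21 and 0.49 on those of day 2. At 30 min it was 1.15, 1.02 and 0.90 on day 1 and 0.18, 0.07 and 0.44 on day 2. At 60 min it was -0.14, -0.32 and -0.41 on day 1 and 0.19, 0.16 and 0.13 on day 2. Thus the groups of the 2 days did not overlap at any of these times, with day 1 below day 2 at 0 and 60 min and above it at 30 min. The day 1 wild type at 120 min returned to high values of 0.98, 0.67 and 0.72. In GR-REV the medians were -0.83, -0.83 and 0.08 at 0 min, 1.14, 1.17 and 0.70 at 30 min, -0.08, 0.21 and 0.04 at 60 min, and 0.43, 0.30 and 0.41 at 120 min. GR-REV, collected on day 1, was thus also highest at 30 min. In KAN1-GR they were 0.72, 0.67 and 1.05 at 0 min, 0.49, 0.50 and -0.00 at 30 min, and -0.09, -0.22 and 0.31 at 60 min. Single plastid members had a Pearson r of 0.34 to 0.96 (median 0.81) with this median over the 42 arrays, to which each contributes.

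**Figure D1:**
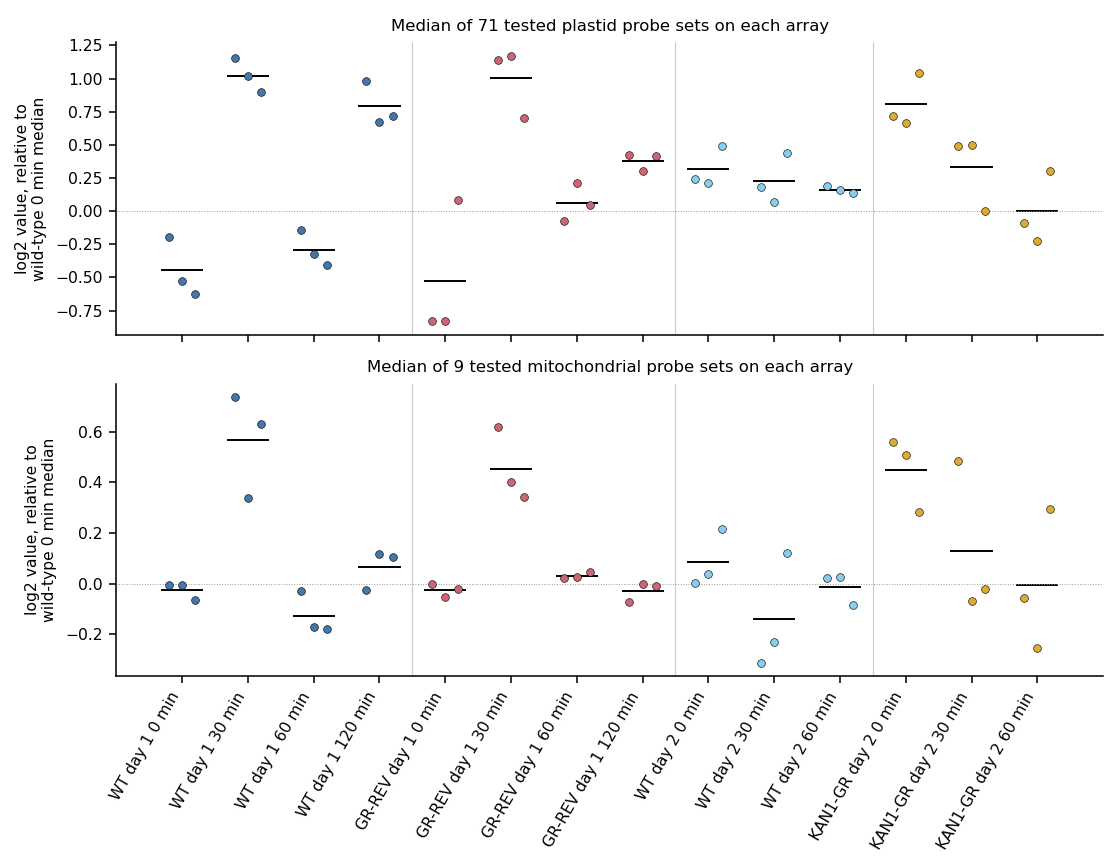
Median relative log2 expression of the tested plastid members and of the tested mitochondrial members (y axis) on each array, by group (x axis: line, day and minutes of DEX). Dots are single arrays and lines are group means; the plastid median of the day 1 wild type goes from between -0.62 and -0.19 at 0 min to between 0.90 and 1.15 at 30 min, while that of day 2 stays between 0.07 and 0.49.

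Before DEX, the wild type of day 1 had lower plastid transcripts than the wild type of day 2. Of 71 plastid members 40 were lower on day 1 and 2 were higher by limma's adjusted p, where 22.9% of all tested probe sets were called (11.8% higher and 11.2% lower). The median difference over the 71 was -0.83, against 0.03 over all tested probe sets. By role, 9 of 15 photosystem II, 13 of 19 ribosomal, 6 of 8 NDH, 3 of 5 photosystem I, 2 of 4 RNA polymerase and 5 of 8 other plastid members were lower. In the ATP synthase 1 of 6 was lower, and in the cytochrome b6f complex 1 of 5 was lower and 1 higher. No difference was called for rbcL, the large subunit of Rubisco.

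The largest difference was in psaA, which encodes a core protein of the photosystem I reaction centre. Its values were -4.21 on each of the 3 day 1 wild-type arrays at 0 min and 4.21, 4.52 and 4.41 on those of day 2, with a difference of -8.59 ± 1.05 (SE, 3 arrays a group, limma adjusted p = 3.06e-06). On all 42 arrays psaA took either of 2 separate ranges. It lay between -4.23 and -4.21 on 5 arrays, which were the 3 just named and GR-REV replicates 1 and 2 at 0 min, and between 1.35 and 6.23 on the other 37. The 5 low values spanned 0.02 in all, and no array lay in the gap of 5.56 above them. Whether the low value is the lowest that the authors' normalisation can give cannot be told from centred values, so the size of this difference should be read as that of the deposited values only. GR-REV replicate 3 at 0 min was at 3.84, in the high range. A limma fit in which the spread follows the mean value gave no call for psaA in any comparison (adjusted p = 0.80 for this one), where its SE was 19.6; psaA has the highest mean of all tested probe sets (3.55).

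Other members with large differences did not take so fixed a low value. psbB, which encodes the CP47 antenna protein of photosystem II, was at -2.96, -2.60 and -3.32 on day 1 and 2.61, 2.60 and 2.88 on day 2, with a difference of -5.66 ± 0.90 (limma adjusted p = 8.55e-05). Its 2 groups did not overlap. ycf4, a photosystem I assembly factor, was at -2.01, -5.08 and -4.30 on day 1 against 2.01, 2.03 and 2.14 on day 2 (-5.85 ± 0.90, limma adjusted p = 5.46e-05). The spread of ycf4 among the 3 day 1 arrays was large, but each was far below each day 2 array. ndhD, an NDH subunit, differed by -4.63 ± 0.65 and psaC, the iron-sulphur subunit of photosystem I, by -4.10 ± 0.63 (limma adjusted p = 2e-05 and 5.46e-05). psbD, which encodes the D2 reaction centre protein of photosystem II, was at -1.45, -1.91 and -1.97 on day 1 and 1.47, 1.47 and 1.45 on day 2 (-3.24 ± 0.62, limma adjusted p = 0.000495).

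By role the median differences were close: -1.05 in photosystem I, -1.04 in photosystem II, -1.03 in the RNA polymerase, -0.93 in the NDH complex and -0.90 in the ribosome. They were -0.05 in both the ATP synthase and the cytochrome b6f complex. accD, a subunit of the acetyl-CoA carboxylase that starts fatty acid synthesis, was at -0.38, -1.58 and -1.72 on day 1 and 0.38, 0.38 and 0.53 on day 2 (-1.66 ± 0.40, limma adjusted p = 0.00384). matK, a maturase for plastid group II introns, was at -0.39, -0.44 and -0.75 against 0.66, 0.39 and 0.81 (-1.14 ± 0.24, or 2.21-fold lower on day 1, limma adjusted p = 0.00117). Neither gene's groups overlapped. clpP, the proteolytic subunit of the Clp protease, was at -0.12, -0.36 and -0.38 against 0.12, 0.17 and 0.32 (-0.49 ± 0.16, limma adjusted p = 0.0242), a call that was lost when any of 4 single arrays was left out (-0.51 to -0.44).

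Several well-known plastid genes did not pass the test in this comparison. psbA, which encodes the fast-turning D1 protein of photosystem II, was at -0.39, -0.40 and -0.79 on day 1 and 0.68, 0.39 and 0.47 on day 2, without overlap. Its limma adjusted p was 0.0929. The spread behind this p includes GR-REV at 0 min, where psbA differed widely between replicates, as given below. The part of those arrays in this p was not tested. rbcL was at 0.21, -0.48 and -0.54 against -0.17, 0.17 and 0.33 (limma adjusted p = 0.293). atpB, the beta subunit of the ATP synthase, was at 0.19, -0.02 and -0.16 against -0.20, 0.08 and 0.02 (limma adjusted p = 0.842), and its groups overlapped. petB, cytochrome b6, was at -0.03, -0.27 and -0.29 against 0.03, 0.14 and 0.13 (limma adjusted p = 0.106). rpoB, the beta subunit of the bacterial-type polymerase, was at -0.12, -0.34 and -0.76 against 0.25, 0.12 and 0.63 (limma adjusted p = 0.115). For petB and rpoB every day 1 array lay below every day 2 array.

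The 2 plastid members that were higher on day 1 were psaB and petL. psaB, the partner of psaA in the photosystem I core, was at 0.54, 0.34 and 0.23 on day 1 and -0.57, -0.37 and -0.23 on day 2 (0.76 ± 0.23, 1.69-fold, limma adjusted p = 0.0166). petL, a small subunit of the cytochrome b6f complex, was at 0.01, 0.55 and 0.69 against -0.38, -0.37 and -0.01 (0.67 ± 0.24, limma adjusted p = 0.0433). Both pairs of groups were without overlap. The call for psaB was lost without either of 2 single arrays (0.66 and 0.67), and that for petL without any of 4 arrays (0.53 to 0.61) and with no filter on probe sets.

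The same 5 arrays that were low for psaA were the 5 lowest of the 42 for 16 of the 71 plastid members. The arrays were picked by psaA, which is itself among the 16. No such count over all tested probe sets is given beside it, so the 16 is a description only. The 16 were psaA, psaC, psbA, psbB, psbT, ndhD, ndhE, ndhJ, petG, ycf4, matK, rpoC1, rpl14, rpl20, rps15 and rps18, so they span both photosystems, the NDH complex, the polymerase and the ribosome. For 12 members none of these arrays was among the 5 lowest: atpB, ndhC, petA, petL, psaB, psaJ, psbC, rpl16, rpl36, rpoA, rps4 and ycf1. As a description only, GR-REV replicate 3 at 0 min was at 2.03 for psbA against -1.13 and -0.68 on the other 2 GR-REV arrays, and at 3.22 against -2.97 and -3.17 for psbB. For rbcL it was at -0.72 against -0.93 and -1.57, so that array did not stand apart for every plastid gene.

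**Figure D2:**
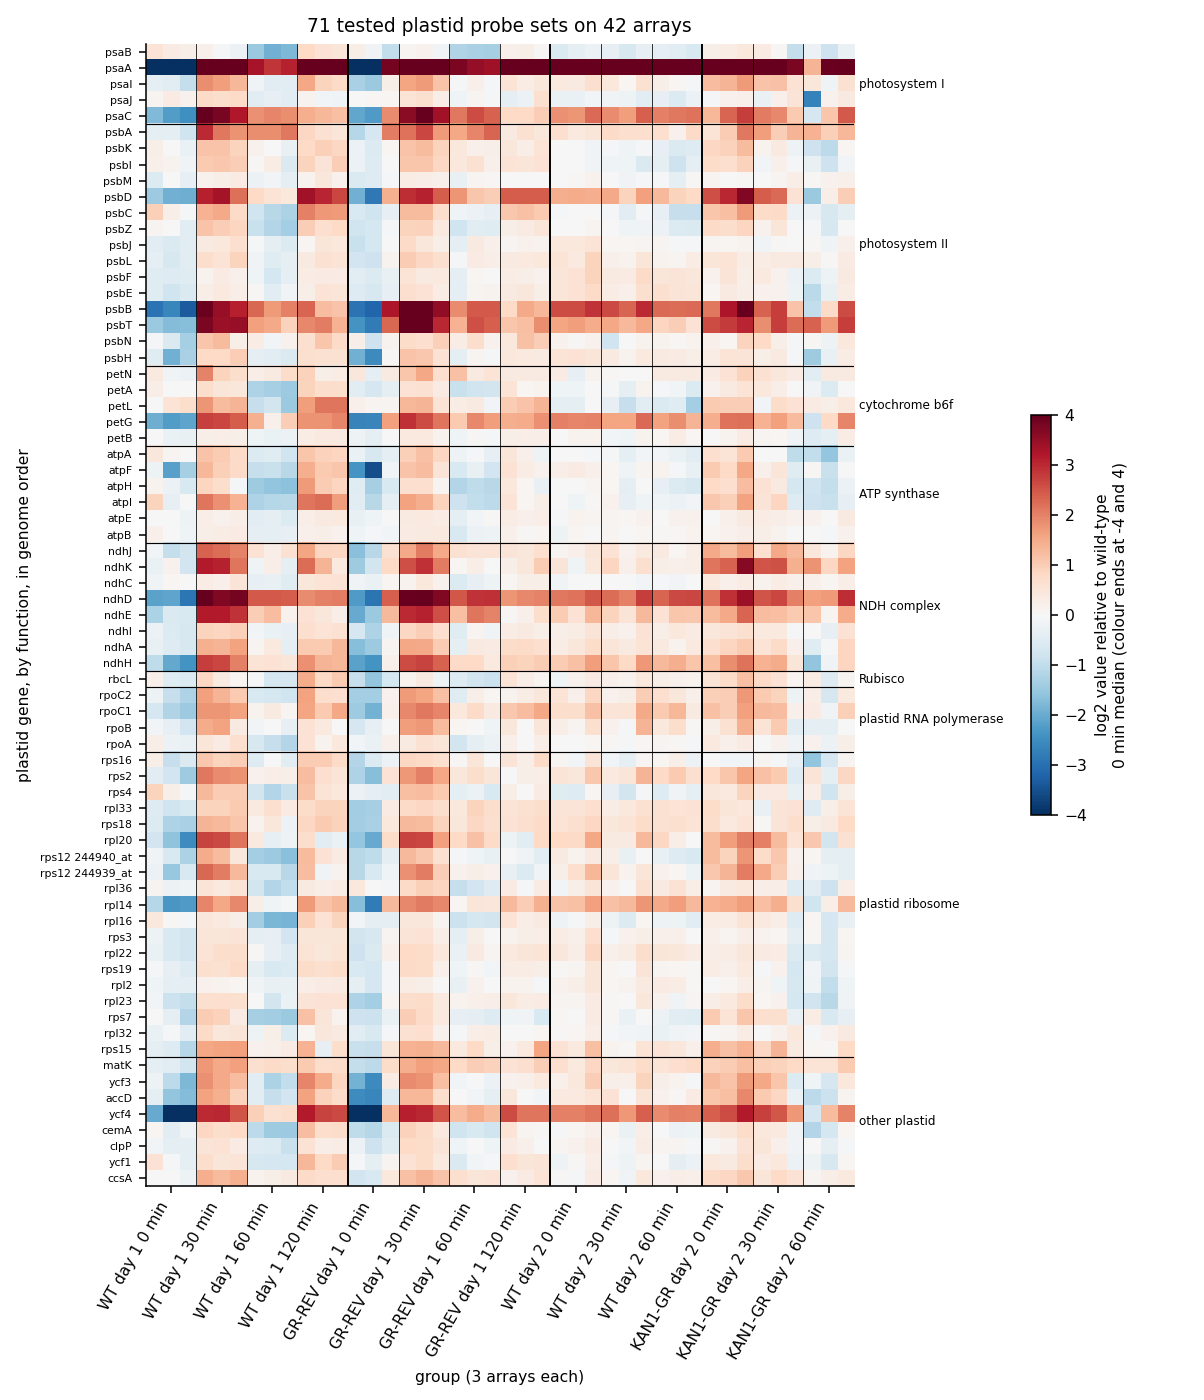
Relative log2 expression (colour, from -4 to 4) of the 71 tested plastid members (rows, by role) on the 42 arrays (columns, by group). The day 1 wild-type arrays at 0 min and GR-REV replicates 1 and 2 at 0 min are low for members of most roles, and the day 1 arrays at 30 min are high.

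After DEX the plastid transcripts of the day 1 wild type rose within 30 min. Of 71 plastid members 61 were higher at 30 min than at 0 min and none was lower by limma's adjusted p, where 9.93% of all tested probe sets were called (4.79% higher and 5.13% lower). The median difference was 1.38, against -0.00 over all tested probe sets. All 15 photosystem II, all 8 NDH, all 4 RNA polymerase and all 5 cytochrome b6f members rose, as did 16 of 19 ribosomal, 7 of 8 other, 3 of 5 photosystem I and 3 of 6 ATP synthase members. The 0 min arrays in this comparison, and in those at 60 and 120 min, are the low day 1 arrays described above, so the comparisons share them.

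psaA reached 5.66, 5.49 and 4.85 at 30 min, from -4.21 on all 3 arrays at 0 min (9.54 ± 1.05, limma adjusted p = 5.72e-07). psbB reached 3.94, 3.48 and 3.12 (6.47 ± 0.90, limma adjusted p = 1.53e-05), and ndhD rose by 6.29 ± 0.65 (limma adjusted p = 2.88e-07). ycf4 rose by 6.63 ± 0.90 and psaC by 5.86 ± 0.63. Members that had not passed the test between the days before DEX rose too. psbA was at 2.99, 2.11 and 1.81 at 30 min, against -0.79 to -0.39 at 0 min (2.83 ± 0.45, 7.11-fold, limma adjusted p = 8.32e-05). rpoB was at 1.49, 1.62 and 0.35 (1.56 ± 0.34, limma adjusted p = 0.00293). petB was at 0.24, 0.26 and 0.24 (0.44 ± 0.13, limma adjusted p = 0.031), a small and even rise whose call was lost without any of 5 single arrays (0.39 to 0.44). psbD rose by 4.66 ± 0.62, accD by 2.55 ± 0.40, matK by 2.15 ± 0.24 and clpP by 0.77 ± 0.16, each past limma's threshold. rbcL at 0.83, 0.37 and 0.07 (limma adjusted p = 0.0724) and atpB at 0.24, 0.30 and 0.33 (limma adjusted p = 0.0524) did not pass.

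At 60 min the day 1 wild type was mixed. Relative to 0 min 16 plastid members were higher and 17 lower by limma's adjusted p, where 4.14% of all tested probe sets were called (2.77% higher and 1.36% lower), and the median difference over the 71 was 0.14. After quantile normalisation the shares over all tested probe sets were 4.2% higher and 3.31% lower. The members far below the day 2 values at 0 min were still above their 0 min values: psaA was at 3.30, 2.85 and 3.09, psbB at 2.31, 1.71 and 2.0, and ndhD differed from 0 min by 4.82 ± 0.65. psbA, at 1.87, 1.87 and 2.10, was 5.54-fold above 0 min (2.47 ± 0.45, limma adjusted p = 0.00106), and matK was higher by 1.22 ± 0.24. Of the 6 ATP synthase members 5 were lower and none higher, and of the 19 ribosomal members 3 were lower and 3 higher. The count of 33 was 21 without day 1 replicate 2 at 60 min. psaB fell to -1.49, -1.93 and -1.81, from 0.23 to 0.54 (-2.11 ± 0.23, 4.32-fold lower, limma adjusted p = 4.05e-07). rpl16, a protein of the large ribosomal subunit, fell to -1.38, -1.83 and -1.87 (-1.83 ± 0.20, limma adjusted p = 3.9e-07). petA, which encodes cytochrome f, fell to -1.24, -1.33 and -1.44 (-1.42 ± 0.15, limma adjusted p = 3.67e-07). psbC, the CP43 antenna protein of photosystem II, fell to -0.80, -1.11 and -1.28 (-1.44 ± 0.24), and petL changed by -1.46 ± 0.24. None of these groups overlapped with its 0 min group.

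At 120 min the day 1 wild type was again broadly above 0 min. Of the 71 plastid members 60 were higher and none lower by limma's adjusted p, where 5.13% of all tested probe sets were called (3.82% higher and 1.31% lower), with a median difference of 1.20. Over all tested probe sets the called shares were 2.73% higher and 2.34% lower after median centring, and 5.11% and 4.69% after quantile normalisation. The plastid members called were 56 after median centring, 64 after quantile normalisation and 52 without replicate 2 at 120 min, whose array median stood apart, and all of them were higher. The 60 included 14 of 15 photosystem II, 16 of 19 ribosomal, 5 of 6 ATP synthase, 7 of 8 NDH and all 8 other members, and the single Rubisco member. psaA was at 6.23, 5.91 and 5.93 (10.23 ± 1.05, limma adjusted p = 1.62e-07), and 6.23 was its highest value on any array. rbcL was at 1.48, 0.79 and 1.06, above each of its 0 min values (1.38 ± 0.25, limma adjusted p = 0.000885). psbC, which had been below its 0 min level at 60 min, was at 2.0, 1.72 and 1.69, and psaB was at 0.81, 0.58 and 0.48. psbA was at 0.84, 0.62 and 0.48, lower than at 30 or 60 min, and was not called against 0 min (limma adjusted p = 0.125). psbD, ycf4 and psbB were higher than at 0 min by 4.81 ± 0.62, 6.64 ± 0.90 and 4.53 ± 0.90.

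In the day 2 wild type no plastid member was called at either time. At 30 min the median difference from 0 min was -0.07, and 0.601% of all tested probe sets were called (0.316% higher and 0.285% lower) by limma's adjusted p. The unadjusted p was under 0.05 for 1 plastid member (1.41%), against 9.23% of all tested probe sets. At 60 min the median was -0.14, and 0.477% of all tested probe sets were called (0.229% higher and 0.248% lower). The unadjusted p was under 0.05 for 9 plastid members (12.7%), all lower. It was so for 12.7% of all tested probe sets too, 1044 of them higher and 1001 lower. psaA stayed at 4.56, 3.98 and 4.68 at 30 min and 4.19, 4.38 and 4.07 at 60 min. psbA was at 0.77, 0.69 and 0.67, then 0.66, 0.18 and 0.78, close to its 0 min values of 0.39 to 0.68. With array weights, which give noisier arrays less influence, 4 plastid members were called at 30 min and 3 at 60 min, where 24% and 7.5% of all tested probe sets were called in that fit. After quantile normalisation 8 were called at 60 min, where 9.62% of all were.

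The difference between the days was itself tested as the change of day 1 less the change of day 2. At 30 min 50 of 71 plastid members had a larger change on day 1 and none a smaller one by limma's adjusted p, where 3.45% of all tested probe sets were called (1.71% higher and 1.74% lower), and the median was 1.43. The difference of changes was 9.52 ± 1.48 for psaA, 6.59 ± 1.28 for ycf4, 6.53 ± 1.28 for psbB, 6.22 ± 0.92 for ndhD and 5.82 ± 0.90 for psaC (limma adjusted p from 0.000352 to 0.00305). At 60 min 7 members had a larger and 4 a smaller change on day 1, where 1.4% of all tested probe sets were called (0.893% higher and 0.502% lower). psaA had 7.46 ± 1.48 and ndhD 4.53 ± 0.92 in one direction, both calls lost with a spread that follows the mean, and psaB -2.03 ± 0.32, rpl16 -1.57 ± 0.28 and petA -1.29 ± 0.21 in the other. The count of 11 at 60 min depended on single arrays: it was between 5 and 7 without any of 7 of them, and 22 with array weights or 28 after quantile normalisation, where 6.6% and 11.2% of all tested probe sets were called (after quantile normalisation 5.62% higher and 5.59% lower).

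**Figure D3:**
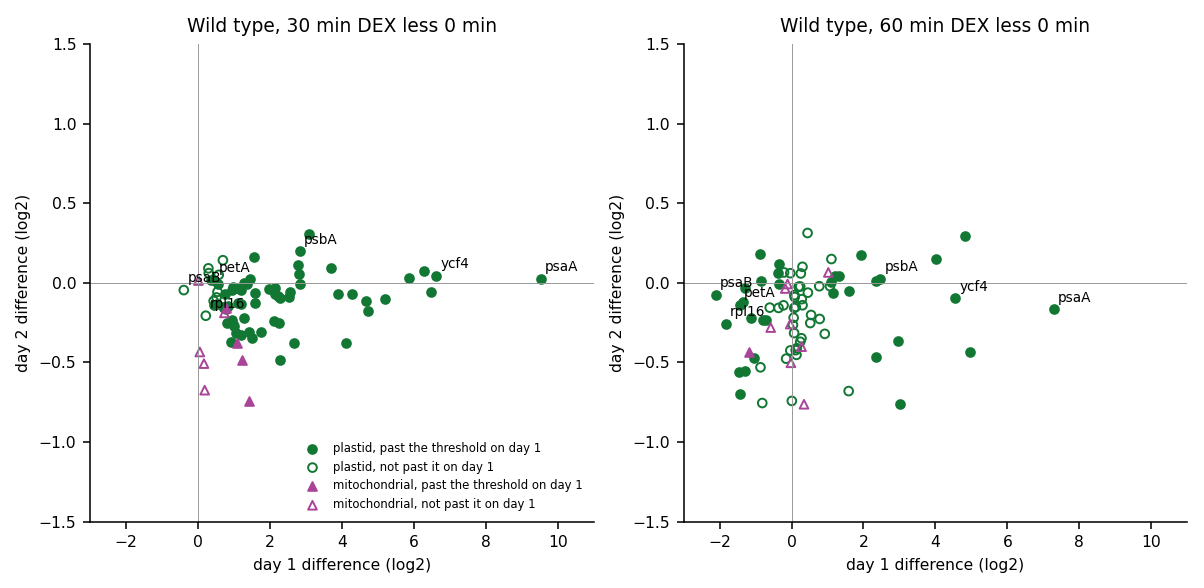
Change of each tested plastid member (circles) and mitochondrial member (triangles) from 0 min to 30 min (left) and to 60 min (right) in the wild type of day 1 (x axis, log2) and of day 2 (y axis, log2, drawn to a larger scale than the x axis). Filled points passed the threshold on day 1; at 30 min the 61 called plastid members lie to the right of 0, with psaA at 9.54, and at 60 min 16 lie to the right and 17 to the left, while no member was called on day 2.

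The 2 wild types also differed at the later times. At 30 min 34 of 71 plastid members were higher on day 1 and none lower by limma's adjusted p, where 19.4% of all tested probe sets were called (9.26% higher and 10.2% lower), and the median difference was 0.87. The NDH complex had 6 of 8 members higher. ndhK was at 3.17, 3.07 and 2.13 on day 1 against 0.86, 0.22 and 0.63 on day 2 (2.22 ± 0.45, 4.67-fold, limma adjusted p = 0.000872), and ndhE differed by 2.18 ± 0.47. The count of 34 was 21 without day 1 replicate 1 at 30 min. petL was at 1.76, 1.28 and 1.35 against -0.32, -0.93 and -0.44 (2.03 ± 0.24, limma adjusted p = 2.82e-06). atpI, a membrane subunit of the ATP synthase, differed by 1.89 ± 0.28, psbA by 1.59 ± 0.45 and matK by 1.04 ± 0.24. The call for psbA was lost without day 1 replicate 1 (1.25). psaA and psbB, so different at 0 min, were not called at 30 min (limma adjusted p = 0.568 and 0.528).

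At 60 min the direction was the opposite, with 23 plastid members lower on day 1 and 1 higher by limma's adjusted p, where 12.3% of all tested probe sets were called (7.17% higher and 5.12% lower), and a median difference of -0.53. They included 4 of 6 ATP synthase and 7 of 19 ribosomal members. rpl16 differed by -1.43 ± 0.20, rpl36, another protein of the large ribosomal subunit, by -1.36 ± 0.21, and psaB by -1.28 ± 0.23. clpP differed by -0.70 ± 0.16 and atpB by -0.44 ± 0.10. The member that was higher was psbA, at 1.87, 1.87 and 2.10 on day 1 and 0.66, 0.18 and 0.78 on day 2 (1.40 ± 0.45, limma adjusted p = 0.0376). Its call was lost when any 1 of the 6 arrays was left out (1.22 to 1.52) and with no filter on probe sets. The count of lower and higher members was 11 to 22 when single arrays were left out, with 11 without day 2 replicate 4, 13 without day 1 replicate 2 or 3, and 15 without day 2 replicate 5.

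Probe sets of genes read from 1 multi-gene transcript differed by unequal amounts in several clusters. psaA and psaB lie next to each other and are transcribed together with rps14, which was not tested. Between the wild types at 0 min the log2 difference was -8.59 for psaA and 0.76 for psaB, which are 9.35 apart. psbD and psbC share a transcript, yet psbD was lower on day 1 by the values given above while psbC was at 0.95, 0.24 and -0.05 on day 1 against -0.08, -0.02 and 0.02 on day 2 (0.41 ± 0.24, limma adjusted p = 0.23). In the psbB cluster, psbB differed by -5.66, psbT and psbH, of small photosystem II proteins, by -3.21 ± 0.65 and -1.77 ± 0.38 (limma adjusted p = 0.000849 and 0.0013), and petB by -0.30. In the cluster of psaI, ycf4, cemA and petA, ycf4 differed by -5.85 and petA by 0.19. All 6 tested genes of the cluster from ndhH to ndhD were lower on day 1 at 0 min and rose at 30 min, but by amounts from -4.63 to -0.82 and from 1.38 to 6.29. The day 1 change at 60 min is taken from the same day 1 arrays at 0 min and is no second observation of these gaps. It was 9.40 apart for psaA and psaB, 3.80 for psbD and psbC, and 5.0 for psbB and petB.

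For atpB and atpE, and in the psbE cluster, the differences lay closer together. atpB and atpE, which overlap, had log2 differences 0.16 apart between the wild types at 0 min and 0.01 apart in the day 1 change at 30 min, and neither was called in these comparisons. All 4 genes of the psbE cluster (psbE, psbF, psbL, psbJ), which encode cytochrome b559 and small photosystem II proteins, were lower on day 1 at 0 min, with differences from -1.23 to -0.92, and all 4 rose at 30 min. The rpoB cluster was less even: rpoB, rpoC1 and rpoC2 all rose at 30 min on day 1, but by amounts from 1.56 to 2.83. Each probe set reports only the stretch of RNA that its probes match, so unequal values within a cluster are unequal values of those stretches.

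**Figure D4:**
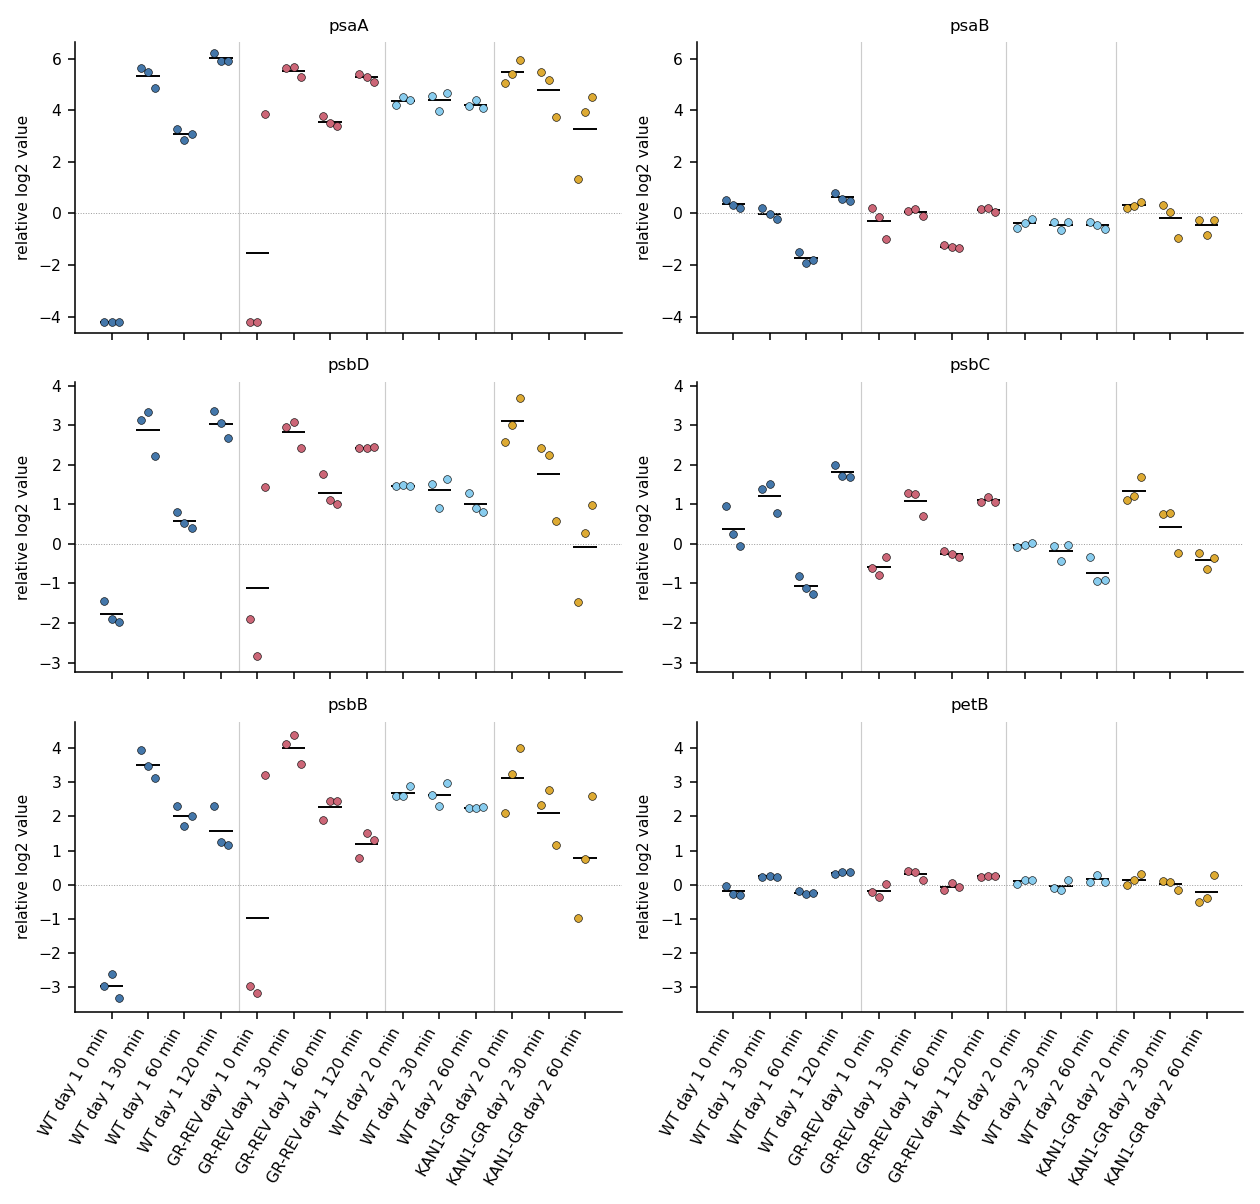
Relative log2 expression (y axis) of psaA and psaB, psbD and psbC, and psbB and petB on each array, by group (x axis); dots are arrays and lines are group means. On the day 1 wild-type arrays at 0 min psaA is at -4.21 and psaB between 0.23 and 0.54, and psbB is between -3.32 and -2.60 with petB between -0.29 and -0.03.

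GR-REV was set against the day 1 wild type at each time. At 0 min 6 of 71 plastid members were lower in GR-REV and none higher by limma's adjusted p, where 15.9% of all tested probe sets were called (7.77% higher and 8.08% lower). The 6 of 71 is near the 8.08% lower over all and below the 15.9% called in all. The unadjusted p was under 0.05 for 19.7% of plastid members, against 28.2% of all tested probe sets. The 6 were psbC (-0.96 ± 0.24), atpI, rbcL (-0.80 ± 0.25), cemA, psaB and petA (-0.58 ± 0.15), which come from several complexes. rbcL was at -0.93, -1.57 and -0.72 in GR-REV against 0.21, -0.48 and -0.54, without overlap. Without GR-REV replicate 3, the array that stood apart, 16 plastid members were called lower and none higher. Without wild-type replicate 1 none was called. The shares called over all tested probe sets in these refits are not given here, so these counts are descriptions only. psaA in GR-REV was at -4.21, -4.23 and 3.84 against -4.21 on all wild-type arrays and was not called (limma adjusted p = 0.0798). In the same comparison 13 of 26 nuclear photosynthesis genes were lower in GR-REV and none higher.

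At 30 min no plastid member was called between GR-REV and wild type by limma, where 9.05% of all tested probe sets were called (4.73% higher and 4.32% lower). No plastid member had an unadjusted p under 0.05, against 20.5% of all tested probe sets. Both groups were high: psbA was at 2.16, 2.68 and 1.70 in GR-REV and 2.99, 2.11 and 1.81 in wild type. At 60 min 10 members were higher in GR-REV and none lower by limma's adjusted p, where 12.8% of all tested probe sets were called (5.01% higher and 7.78% lower), and the median difference was 0.38. The share of plastid members called, 14.1%, was thus near the 12.8% over all. All of those called were higher, where 5.01% of all tested probe sets were higher. After quantile normalisation the shares over all were 3.6% higher and 3.52% lower. petL was at 0.30, 0.36 and -0.10 against -0.92, -0.74 and -1.48 (1.23 ± 0.24, 2.34-fold, limma adjusted p = 0.000404). An rps12 probe set (244940_at) differed by 1.31 ± 0.28, rps7 by 0.99 ± 0.27 and rpl16 by 0.92 ± 0.20, all genes of ribosomal proteins. The count was 4 without wild-type replicate 3, and 5 and 6 without GR-REV replicates 2 and 3.

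At 120 min 11 plastid members were lower in GR-REV and none higher by limma's adjusted p, where 15.4% of all tested probe sets were called (5.08% higher and 10.3% lower), and the median difference was -0.35. The share of plastid members called, 15.5%, was thus near the 15.4% over all. All of those called were lower, where 10.3% of all tested probe sets were lower. After quantile normalisation the shares over all were 4.29% higher and 4.07% lower. atpI was at 0.56, 0.09 and 0.23 in GR-REV against 2.13, 2.23 and 1.67 in wild type (-1.72 ± 0.28, 3.28-fold lower, limma adjusted p = 3.11e-05). atpH, the ring subunit of the same complex, was at 0.43, 0.09 and -0.30 against 1.71, 1.01 and 0.85 (-1.12 ± 0.28, limma adjusted p = 0.00531). Both were without overlap, and 3 of the 6 ATP synthase members were called. The count was 4 without wild-type replicate 1, 7 without wild-type replicate 2, and 5 and 3 without GR-REV replicates 2 and 3, and the call for atpH was lost without wild-type replicate 1 (-0.86) or GR-REV replicate 3 (-0.93).

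KAN1-GR was set against the day 2 wild type. At 0 min, before DEX, 17 of 71 plastid members were higher in KAN1-GR and none lower by limma's adjusted p, where 10.7% of all tested probe sets were called (4.94% higher and 5.78% lower), and the median difference was 0.46. ndhK was at 2.15, 2.37 and 3.65 in KAN1-GR and 0.51, -0.16 and 0.43 in wild type (2.46 ± 0.45, 5.51-fold, limma adjusted p = 0.000603). psbC was at 1.10, 1.20 and 1.70 against -0.08 to 0.02 (1.36 ± 0.24, limma adjusted p = 0.000461), petL differed by 1.27 ± 0.24 and atpI by 1.26 ± 0.28. None of these 4 genes' groups overlapped. The count was 10 or 11 without any 1 of the wild-type arrays and 8 without KAN1-GR replicate 3.

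At 30 min 2 plastid members were higher in KAN1-GR by limma's adjusted p, ndhK (1.60 ± 0.45) and petL (0.96 ± 0.24), where 14% of all tested probe sets were called (6.12% higher and 7.93% lower). The share of plastid members called, 2.82%, was below the 14% over all. The count of 2 was 28 with array weights, where 34.9% of all tested probe sets were called. It was 4 without KAN1-GR replicate 3, 1 without wild-type replicate 5 and 0 without KAN1-GR replicate 2. At 60 min 1 member, petL (1.14 ± 0.24), was higher and 7 were lower, where 18% of all tested probe sets were called (8.38% higher and 9.59% lower). The 7 of 71 plastid members lower is near the 9.59% lower over all. The share of plastid members called, 11.3%, was below the 18% over all. ndhH differed by -1.58 ± 0.47 and psbE by -0.91 ± 0.20, and 3 of the 19 ribosomal members were lower. Without KAN1-GR replicate 1, the array with the highest 25S control, 2 were higher and 2 lower, ndhH was no longer called (-0.93), and the difference of psbE was -0.54. The count was 5 without wild-type replicate 5 or KAN1-GR replicate 2, and 15 without KAN1-GR replicate 3. KAN1-GR replicate 1 was at 1.35 for psaA against 3.94 and 4.53 on the other 2, and at -0.99 for psbB against 0.75 and 2.60.

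The response of each line to DEX was tested as the difference between its change since 0 min and that of wild type on that day. For GR-REV at 30 min no plastid member was called by limma, where 1.38% of all tested probe sets were called (0.862% higher and 0.521% lower). The unadjusted p was under 0.05 for 5 plastid members (7.04%), against 10.6% of all tested probe sets. At 120 min none was called, where 3.84% of all tested probe sets were called (1.18% higher and 2.65% lower, or 0.657% and 0.781% after quantile normalisation). There 2 plastid members had an unadjusted p under 0.05 (2.82%), against 15.8% of all tested probe sets. At 60 min 9 members had a higher change in GR-REV and none a lower one, where 4.36% of all tested probe sets were called (1.75% higher and 2.61% lower), with psbC at 1.77 ± 0.34 (limma adjusted p = 0.0012), petL at 1.5 ± 0.34, rpl16 at 1.33 ± 0.28 and cemA, which encodes an inner envelope protein, at 1.30 ± 0.31. Without GR-REV replicate 3 at 0 min the count was 22, all higher, and without wild-type replicate 1 or 2 at 0 min or replicate 3 at 60 min it was 5. For these refits too the share called over all tested probe sets is not given here. For KAN1-GR at 30 min none was called, where 2.4% of all tested probe sets were called (0.694% higher and 1.71% lower, or 2.08% and 2.87% after quantile normalisation). There 4 plastid members had an unadjusted p under 0.05 (5.63%), against 11.7% of all tested probe sets. At 60 min 3 members had a lower change in KAN1-GR, where 6.84% of all tested probe sets were called (2.88% higher and 3.96% lower): atpI at -1.77 ± 0.40 (limma adjusted p = 0.0035), atpA at -1.46 ± 0.32 and psbK, a small photosystem II protein, at -1.19 ± 0.28. atpI and atpA are subunits of the ATP synthase read from 1 cluster. The count was 3 without KAN1-GR replicate 1 and 11 without KAN1-GR replicate 3, both at 60 min.

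Of the 12 mitochondrial members 9 were tested. Those named here were chosen after their values were seen. Their array median was -0.06 to 0.21 on all wild-type arrays at 0 min. It was 0.74, 0.34 and 0.63 on the day 1 wild-type arrays at 30 min, against -0.31, -0.23 and 0.12 on those of day 2. Over the 42 arrays it had a Pearson r of 0.69 with the plastid median, as a description of values from the same arrays. At 0 min 4 of 9 were lower on day 1 and 1 was higher by limma's adjusted p, where 22.9% of all tested probe sets were called. nad9, a subunit of respiratory complex I, was at -0.26, -0.50 and -0.06 on day 1 and 0.06, 1.10 and 1.24 on day 2 (-1.08 ± 0.26, limma adjusted p = 0.00402). cox2, a subunit of cytochrome c oxidase, was at -1.74, -0.74 and -0.44 against 0.44, 0.47 and 0.88 (-1.57 ± 0.42, limma adjusted p = 0.00757), a call lost without day 1 replicate 1 (-1.19). ATMG00690, which has no name in the sources used here, differed by -1.31 ± 0.31 (limma adjusted p = 0.00322). The count of 5 was 3 without any of the 3 day 1 arrays or without day 2 replicate 5 or 6.

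At 30 min on day 1, 4 of 9 mitochondrial members were higher than at 0 min by limma's adjusted p and none lower, where 9.93% of all tested probe sets were called. nad9 was at 0.74, 0.97 and 1.16 (1.23 ± 0.26, 2.35-fold, limma adjusted p = 0.00248). nad4, another complex I subunit, was at 0.83, 0.50 and 0.91 against -0.01, -0.14 and 0.01 at 0 min (0.79 ± 0.19, limma adjusted p = 0.00591). Neither gene's groups overlapped. The count was 2 without day 1 replicate 1 at 30 min. On day 2 none was called at 30 or 60 min by limma. The unadjusted p was under 0.05 for 3 of 9 at each time, all lower, against 9.23% and 12.7% of all tested probe sets. The change at 30 min was larger on day 1 for 4 of 9, where 3.45% of all tested probe sets were called, with nad9 at 1.71 ± 0.37 (limma adjusted p = 0.00757). This count was 1 with no filter on probe sets, and 1 or 2 without any of 9 single arrays: day 1 replicates 1 and 2 and day 2 replicates 5 and 6 at 0 min, and day 1 replicates 1 to 3 and day 2 replicates 4 and 5 at 30 min. At 30 min 3 were higher on day 1 than on day 2, where 19.4% of all were called: the probe set shared by rps3 and rpl16 (1.43 ± 0.29), ATMG01000 (1.26 ± 0.19) and nad4 (0.89 ± 0.19). At 60 min on day 1 only ATMG01000 was called against 0 min among the 9, where 4.14% of all were called, and it was lower (-1.19 ± 0.19, limma adjusted p = 0.000184).

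Of the 9 tested mitochondrial members 1 was called between GR-REV and wild type at 0 min, 1 at 120 min, and 3 between KAN1-GR and wild type at 0 min. Over all 16129 tested probe sets 1254 were higher and 1304 lower in GR-REV at 0 min, and 820 and 1669 at 120 min. In KAN1-GR at 0 min 797 were higher and 933 lower. Each 1 of 9 is thus near the share over all. In GR-REV cox2 was higher at 0 min, at 0.33, 0.27 and 0.33 (1.28 ± 0.42, limma adjusted p = 0.0342), a call lost under 7 other settings (0.90 to 1.31), and ATMG01000 was lower at 120 min (-0.97 ± 0.19, limma adjusted p = 0.000353). In KAN1-GR at 0 min nad4 was at 1.22, 0.67 and 0.37 against -0.15, 0.04 and 0.17 in wild type (0.73 ± 0.19, limma adjusted p = 0.0112). mttB, a protein-transport gene, was also higher (1.07 ± 0.29, limma adjusted p = 0.0144), on a probe set that also matches a nuclear locus, and ATMG00690 was lower (-1.14 ± 0.31, limma adjusted p = 0.0175). This count of 3 was 0 without KAN1-GR replicate 1, and 1 without KAN1-GR replicate 3 or wild-type replicate 6. No mitochondrial member was called in the other comparisons of a line with wild type or in the DEX responses of the lines by limma. There between 0 and 2 had an unadjusted p under 0.05, against 10.6% to 29.7% of all tested probe sets.

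Among the 6 tested members assigned to neither genome, 244990_s_at was higher in KAN1-GR at every time. It was at 2.77, 1.78 and 1.83 in KAN1-GR at 0 min, 1.93, 2.56 and 3.00 at 30 min, and 2.0, 2.37 and 2.76 at 60 min. On the day 2 wild-type arrays it was between -0.56 and 0.44. The difference was 2.21 ± 0.45 at 0 min (4.64-fold, limma adjusted p = 0.00164), 2.39 ± 0.45 at 30 min and 2.15 ± 0.45 at 60 min, without overlap at any time. On day 1 it was at 2.29 on GR-REV replicate 3 at 120 min and at -0.58 to 1.20 on all other arrays. What this probe set reports is not given in the sources used here.

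**Figure D5:**
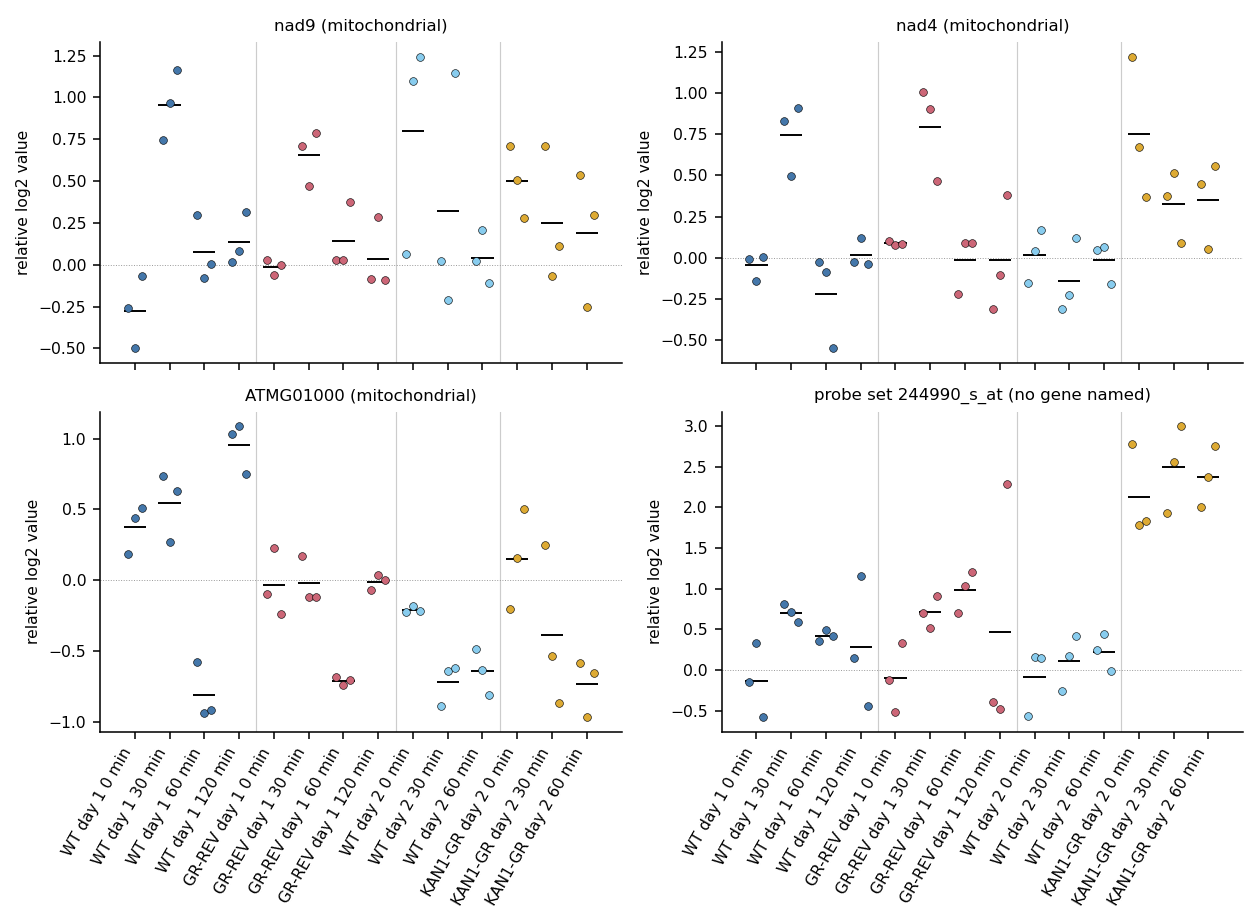
Relative log2 expression (y axis) of the mitochondrial genes nad9, nad4 and ATMG01000 and of the unnamed probe set 244990_s_at on each array, by group (x axis); dots are arrays and lines are group means. 244990_s_at lies between 1.78 and 3.00 on the 9 KAN1-GR arrays and between -0.56 and 0.44 on the day 2 wild-type arrays.

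The remaining 36 members have no ANOVA p-value and were not tested. Among the plastid ones rps14, a ribosomal protein gene, ranged from -0.05 to 0.10 over the 42 arrays, petD, subunit IV of the cytochrome b6f complex, from -0.03 to 0.08, and ndhF from -0.13 to 0.14. ndhG ranged from -0.04 to 1.40, and ycf2 and ndhB, which lie in the inverted repeat, were also untested. Of the mitochondrial ones ccmB, for cytochrome c maturation, ranged from -0.06 to 0.13. ATMG00640 had a mean of 0.56 in GR-REV at 30 min (standard deviation between arrays 0.97) and 0.33 in the day 2 wild type at 0 min (0.30). ccmFN2 had a mean of 0.18 in KAN1-GR at 30 min (0.37). The 26 untested members assigned to neither genome ranged from -0.17 to 0.50. Thus the probe sets of petD and rps14 stayed near 0 on arrays where their transcript partners psbB and psaA changed by several log2 units. A probe set with no signal on any array and one with a steady signal look alike in centred values.

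Nuclear genes of the same processes were read from the same fits. Of 26 tested nuclear genes of photosynthesis 5 were higher and none lower on day 1 than on day 2 in the wild type at 0 min, and 2 fell while none rose from 0 to 30 min on day 1, both by limma's adjusted p, where 22.9% and 9.93% of all tested probe sets were called. The 5 of 26 is thus near the share over all. Their array median was 0.01 to 0.16 at 0 min on day 1 and -0.14 to -0.02 on day 2, and its Pearson r with the plastid median over the 42 arrays was 0.03. Of the 6 nuclear sigma factors 1 was lower on day 1 at 0 min and none changed at 30 min, and none of the 3 phage-type polymerase genes was called in either comparison. Of 11 polymerase-associated proteins 1 was higher on day 1 at 0 min and 1 rose at 30 min on day 1. Of 15 tested nuclear genes of mitochondrial respiration 6 were higher and none lower on day 1 at 0 min, and 2 fell and none rose from 0 to 30 min on day 1. Their array median was 0.06 to 0.09 at 0 min on day 1 and -0.21 to -0.01 on day 2. Its r with the plastid median was -0.42 (-0.59 within day 1 and -0.07 within day 2), as a description of values from the same arrays. Of 8 root markers 5 were lower and 2 higher on day 1 at 0 min, against the 22.9% over all, with an array median of -0.58 to -0.09 on day 1 against 0.11 to 0.36 on day 2. From 0 to 30 min on day 1, 4 of 8 fell. Their part in the plastid differences was not tested, and their r with the plastid median was -0.08 (-0.30 within day 1 and 0.22 within day 2).

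The nuclear genes whose values over the 42 arrays were most like the plastid median were AT5G15780 (Pearson r = 0.883), NERD (0.790), AT2G31150 (0.771), AT1G60200 (0.725) and AT4G27640 (0.717). They are the highest of 15115 probe sets with 1 gene outside the organelle block, whose r had a median of -0.01 and a 95th percentile of 0.388. The others of the 10 highest, with an r from 0.694 to 0.705, were AT4G04970, AT1G28290, AT2G05210, AT4G37460 and the probe set 249905_at, for which the platform annotation and the authors' table name different loci. The arrays share groups, so these values describe likeness only.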

How the data were processed

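Whole-seedling RNA was measured on 42 ATH1 arrays in 14 groups of 3, and this number limits the precision. The median SE of a difference was 0.150 over all tested probe sets and 0.271 over the plastid members. For a difference of changes it was 0.2125 and 0.384. The deposited values are on a log2 scale, made by the authors with GCRMA per the submitters' processing notes; no version is given in the sources used here, and the base is that of the method. On these values the 6 wild-type arrays before DEX have a median of 0 for every probe set, so levels are relative. The other deposited table repeats the values exactly and adds the authors' ANOVA p-values, a unit called other here, for 16164 probe sets. Why the rest are blank is not stated. Columns of other samples numbered 0.

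limma 3.58.1 in R 4.3.3 fitted 14 group means to the 42 arrays at once (28 residual degrees of freedom, 3.92 prior). In each of 22 contrasts the two-sided moderated p was adjusted by Benjamini-Hochberg over 16129 probe sets. The script was tested on simulated data. The labels call the samples biological replicates in separate flasks. Replicate numbers were not used as pairs, since same-numbered arrays deviated together (every r over 0.1) in 2 of 34 pairs of groups (r from -0.39 to 0.64 over 102 pairs of arrays). Probe sets were named by the platform annotation. RefSeq's table of assembly TAIR10.1 gave symbols and gene order only.

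The members, gene lists, clusters and tests were chosen with earlier results of these data known. Values by array were given for a fixed list of plastid and mitochondrial genes, and beside them the 5 highest and 5 lowest called members of each contrast could be named. Nuclear genes most alike were the 10 with the highest r. Alternatives were array weights, quantile normalisation, median centring, no filter on probe sets, a mean-dependent spread, arrays of the same day alone, a replicate block and leaving out each array.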

Additional observations from a re-analysis of the deposited data

Results flagged for a closer look

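Some changes differed between the collection days or between a line and the wild type of its day when the difference itself was tested with limma. The change of the wild type from 0 to 30 min differed between the days for 50 of 71 plastid members and 4 of 9 mitochondrial members. Over all 16129 tested probe sets 276 had a larger and 281 a smaller change on day 1. Without single arrays the member counts were 40 to 54 and 1 to 5. The differences of log2 changes, day 1 less day 2, were 9.52 for psaA, 6.59 for ycf4, 6.53 for psbB, 6.22 for ndhD, 5.82 for psaC and 1.71 for nad9. The change from 0 to 60 min differed for 11 plastid members, with 7.46 for psaA, 4.53 for ndhD, -2.03 for psaB, -1.57 for rpl16 and -1.29 for petA. Over all tested probe sets 144 had a larger and 81 a smaller change on day 1. The count of 11 was 5 to 11 when single arrays were left out. All these changes are taken from the 0 min arrays of each day, of which the 3 of day 1 are low for most plastid members.

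The response of GR-REV at 60 min differed from that of wild type for 9 of 71 plastid members, with psbC at 1.77, petL at 1.5, rpl16 at 1.33 and cemA at 1.30. Over all 16129 tested probe sets 283 had a higher and 421 a lower change. The count of 9 was 5 to 22 when single arrays were left out. The response of KAN1-GR at 60 min differed for 3 plastid members, with atpI at -1.77, atpA at -1.46 and psbK at -1.19. Over all tested probe sets 464 had a higher and 639 a lower change, so the share of plastid members called was no higher than that over all. The count of 3 was 3 to 11 when single arrays were left out.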

How the results depend on the processing

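Counts are of called plastid (P, of 71) and mitochondrial (M, of 9) members by limma, with the count of the fit as described in brackets. Median centring and a spread that follows the mean kept every count within 1.5 times, and no count or named difference changed direction. With array weights, P between the wild types at 30 min was 61 (34) and M 5 (3); M on day 1 at 120 min 1 (0); on day 2 at 30 min P 4 and M 5 and at 60 min P 3 and M 1 (all 0); the difference of changes at 60 min P 22 (11) and M 2 (0). With the same weights, GR-REV against wild type gave M 0 (1) at 0 min, M 1 (0) at 30 min, P 18 (10) and M 1 (0) at 60 min and P 21 (11) at 120 min. KAN1-GR against wild type gave P 33 (17) at 0 min and P 28 (2) and M 3 (0) at 30 min, and its response P 2 and M 2 (both 0) at 30 min and P 11 (3) at 60 min. Calls over all tested probe sets rose as well: from 19.4% to 45% between the wild types at 30 min, from 0.601% to 24% on day 2 at 30 min, from 0.477% to 7.5% on day 2 at 60 min, and for KAN1-GR from 10.7% to 26.7% at 0 min and from 14% to 34.9% at 30 min. In GR-REV against wild type 13.5%, 12.6%, 16.5% and 18.7% were called at 0, 30, 60 and 120 min with the weights. In the difference of changes at 60 min 6.6% were called, and in the KAN1-GR response 13.7% at 30 min and 10.2% at 60 min. On day 1 at 120 min 4.15% were called.

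After quantile normalisation, where 9.62% of all were called on day 2 at 60 min (0.477%) and 11.2% in the difference of changes at 60 min (1.4%), P between the wild types at 60 min was 38 (24), M on day 1 at 120 min 1 (0), M on day 2 at 30 min 2 (0), P and M on day 2 at 60 min 8 and 2 (both 0), and the difference of changes at 60 min P 28 (11) and M 1 (0). GR-REV against wild type gave P 1 (6) and M 0 (1) at 0 min, P 3 (0) at 30 min and P 16 (10) at 60 min. KAN1-GR gave M 2 (0) at 30 min and P 16 (8) at 60 min, and its response P 1 and M 1 (both 0) at 30 min and P 10 (3) at 60 min. Over all tested probe sets this fit called 20.2% between the wild types at 60 min, 9.8% on day 1 at 120 min and 6.66% on day 2 at 30 min. For GR-REV against wild type it called 7.51%, 4.97% and 7.12% at 0, 30 and 60 min. For KAN1-GR it called 12.6% at 30 min and 16.7% at 60 min, and for its response 4.95% and 10.3%. With arrays of the same day alone, M on day 1 was 2 (1) at 60 min and 3 (0) at 120 min, M in GR-REV against wild type 1 (0) at 30 and at 60 min, P in KAN1-GR against wild type at 30 min 5 (2), and P of its response at 60 min 6 (3). Over all tested probe sets that fit called 3.73% and 4.25% on day 1 at 60 and 120 min. In GR-REV against wild type it called 8.64% and 12% at 30 and 60 min. In KAN1-GR it called 11.2% against wild type at 30 min and 6.06% in the response at 60 min. With no filter on probe sets, M was 1 (4) for the difference of changes at 30 min and 0 (1) for GR-REV at 0 min. There 2.37% and 10.6% of all probe sets were called. With a replicate block, M was 1 (0) on day 1 at 120 min and 2 (4) for the difference of changes at 30 min, and no other count moved by over 1.5 times. The fit with the block called 4.61% and 3.17% of all tested probe sets in those comparisons. The block could not be fitted between the wild types or between KAN1-GR and wild type, which share no replicate numbers. The causes of these shifts were not tested.

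Leaving out single arrays gave these ranges. The shares called over all tested probe sets in these refits are not given here, so the ranges describe dependence on single arrays only. Between the wild types P was 34 to 43, 21 to 34 and 11 to 22 at 0, 30 and 60 min, and M 3 to 4, 3 to 4 and 0 to 0. On day 1 P was 55 to 62, 21 to 29 and 49 to 59 at 30, 60 and 120 min, and M 2 to 4, 1 to 1 and 0 to 1. On day 2 P was 0 throughout and M 0 to 1 at 30 min (1 without replicate 6 at 30 min) and 0 to 2 at 60 min (2 without replicate 4 at 0 min). The differences of changes gave P 40 to 54 and 5 to 11, and M 1 to 5 and 0 to 1. GR-REV against wild type gave P 0 to 16, 0 to 0, 4 to 11 and 3 to 9, and M 0 to 1, 0 to 1, 0 to 0 and 1 to 1, at 0, 30, 60 and 120 min. KAN1-GR gave P 8 to 15, 0 to 4 and 4 to 15, and M 0 to 4, 0 to 0 and 0 to 2. The responses at 60 min gave P 5 to 22 for GR-REV and 3 to 11 for KAN1-GR, and those at 30 and 120 min P 0 throughout, with M 0 to 1 for KAN1-GR at 30 min.

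Of 103 named differences followed through these settings 80 kept their call in every setting and 23 lost it in at least 1, with 55 calls lost over 1365 fits. Among them, rbcL and petA in GR-REV at 0 min lost theirs after quantile normalisation (-0.38 and -0.46), psbA between the wild types at 30 min without day 1 replicate 1 (1.25), and in KAN1-GR ndhK at 30 min without any of 3 arrays and ndhH at 60 min without wild-type replicate 5 (-1.49). psaA lost its call in 6 comparisons, and ndhD in 1, with a spread that follows the mean. The 23 leave out other calls that were lost where a count fell to 0. These were mttB and ATMG00690 in KAN1-GR at 0 min, and atpI, cemA and psaB in GR-REV at 0 min. More of the calls named above than the 23 were thus lost in some setting. Groups of 3 arrays and centred values limit what can be told: no signal over background is kept.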
